A study of Rattus norvegicus with 9 samples.

Results

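The genes for the proteins of the cytosolic ribosome were followed across 9 kidney cortex libraries of diabetic ZDF fa/fa rats. A row counted as a member when its symbol began with Rpl or Rps and a number in the usual form of these names, or was Rpsa, Rplp0 or Rplp2, and when its mean value over the 9 libraries was at least 10. Kinases of the Rps6k family were left out. Of 18420 genes in the table, 13647 reached that mean, and 67 of these were members, 41 of the large and 26 of the small subunit.

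ZDF fa/fa rats lack a working leptin receptor and become obese and diabetic. All 9 libraries carried the treatment label Medical Bypass, for which the labels name no agents, dose, age or sex, and they formed 1 group of 9 replicates of poly(A) selected RNA. No lean, untreated or operated group was analysed here, so no effect of the treatment, the diabetes or the genotype could be estimated, and every comparison is between replicates. Nothing in the labels ties a replicate to an animal of its own, and a p-value here speaks only of the spread among 9 libraries, part of which may be technical.

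The cytosolic ribosome joins a small subunit, which reads the messenger RNA, to a large subunit, which forms the peptide bond. Each subunit is built from ribosomal RNA and a fixed set of proteins, nearly all present in 1 copy per ribosome. Their messenger RNAs belong to the TOP class, which starts with a cytosine in a run of pyrimidines and whose translation is controlled through mTOR and Larp1. The genes have left many processed copies in mammalian genomes, and short reads from them can align to several places.

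Runs of pyrimidines were looked for in the RefSeq sequence around the start of the gene. A run found there need not be the one that starts the messenger RNA, and that of Rpl5 below ends before the annotated start. The members below are some of those named in the later results and do not stand for all of them. Of others named later, Rpl4 and Rps27 held a run of at least 8 bases, while Rplp2, Rpl36, Rps16, Rps3a and Rpsa did not. Each member below is shown with 15 bases before and 15 bases from the annotated start, on the coding strand in build GRCr8. The longest run of C and T is in capitals where it reached 8 bases.
Rps2 at chr10:14251833-14251862, plus strand: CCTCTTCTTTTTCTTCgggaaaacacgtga
Rps15 at chr7:10068101-10068130, minus strand: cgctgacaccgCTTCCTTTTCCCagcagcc
Rpl28 at chr1:78083518-78083547, minus strand: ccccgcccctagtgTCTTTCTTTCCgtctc
Rpl13 at chr19:68062499-68062528, plus strand: ctttgcggtgcccgaTCCTTTCCgctcggc
Rplp0 at chr12:46718376-46718405, minus strand: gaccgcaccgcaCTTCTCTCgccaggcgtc
Rpl5 at chr14:1995211-1995240, minus strand: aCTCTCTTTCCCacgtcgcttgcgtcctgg
Rpl7l1 at chr9:21695703-21695732, plus strand: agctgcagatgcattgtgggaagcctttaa

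RefSeq promoter entries matched 52 of the 67 members by symbol. A run of at least 8 pyrimidines lay in the 30-base window of 31 of the 52 members, 59.6%, and of 11.4% of all 33469 promoter entries. It was found in 19 of 33 matched large subunit members and in 12 of 19 matched small subunit members. The letters CCGGAAG, a core that ETS family factors bind, were searched on both strands of the 300-base entry. The other strand reads CTTCCGG, whose letters before GG can lie in a pyrimidine run. The letters of either strand were present in 17 matched members, 32.7%, and in 8.75% of all entries. A match describes the letters of the window and is not a site, and these windows were not aligned to the build on which reads were counted.

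The libraries held 26045365 ± 9955332 reads in genes (SD, n = 9), from 10757440 in replicate 3 to 43071223 in replicate 8. Cortex markers were present: Slc34a1 of the proximal tubule averaged 79242, Umod of the thick ascending limb 57070 and Nphs1 of the podocyte 2052. The table also counted 3 kinds of reads that entered no gene, given here as shares of all counted reads. Reads that aligned to more than 1 place, called multi-aligned below, made 17.2% ± 2.33, from 14.9% in replicate 2 to 22.1% in replicate 5. Whether such a read was counted once or once for each place is not known here. Reads that fell in no counted feature, called outside genes below, made 28.9% ± 2.93 (SD, n = 9), from 22.0% in replicate 5 to 31.3% in replicate 3. Which parts of a gene were counted as features is not known here, so some of these reads may lie within genes, as in introns. Reads in more than 1 gene made 0.106% ± 0.0129 (SD, n = 9). Replicate 5 stood at an end of all 3 shares. The shares moved together across the 9 libraries, with Pearson r of -0.88 between the first and the second, 0.81 between the first and the third and -0.86 between the second and the third. They share a denominator, and their parts in a result cannot be told apart from each other.

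The values of genes are counts scaled by library size factors and not by gene length, so levels are compared between replicates of 1 gene and never between genes. A name counted among the members does not mean that the gene was measured in full, since only reads placed once were counted. Of 79 symbols of the textbook set of cytosolic ribosomal proteins, 61 were members, 6 had a row under the minimum mean and 11 had no row. Rpl8, Rpl10, Rpl13a, Rplp1, Rps6, Rps7, Rps9, Rps13, Rps21 and Rps26 are among those without a row and are not analysed here. The 6 other members, Rpl22l1, Rpl7l1, Rpl10l, Rps18l1, Rps27l and Rps4y2, carry names of paralogues or copies.

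In all, 74 rows had a member's name, and 7 of them fell under the minimum. Rps19 lay just outside it at 3.67 and Rpl38 just inside at 14.2. Rpl9 averaged 3.00, Rpl35a 1.89, Rpl3l 1.40, Rpl37 0.799 and Rpl7a 0.668, and Rpl39l, a paralogue best known from testis, had no read in any library. Rps19, Rpl9, Rpl35a, Rpl37 and Rpl7a belong to every ribosome, so their low rows do not show that the proteins were missing from the tissue. RefSeq GRCr8 names 867 pseudogenes or numbered copies after the members, with a median of 13 per member and a highest count of 36 for Rps2. The rows under the minimum had a median of 15. Across members the number of named copies had a Spearman rho of 0.07 with the mean value, a description over genes of 1 set of libraries.

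Of all reads in genes the members held 2.51% ± 0.419 (SD, n = 9), with 1.61% ± 0.257 in the large and 0.895% ± 0.163 in the small subunit. The share ran from 1.99% in replicate 2 to 3.20% in replicate 5, with 2.45% in the median library. Weighting each member alike, the mean of log2(value + 1), centred on each member's own mean, was lowest in replicate 2 at -0.42, had its median of -0.06 in replicate 4 and was highest in replicate 5 at 0.56. That is a 1.97-fold span. Replicate 8 was next to the top at 0.35, and replicates 6, 9 and 3 lay near the bottom at -0.28, -0.21 and -0.20. Replicates 7 and 1 lay between, at 0.15 and 0.10.

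Single members followed this order closely. The highest value lay in replicate 5 for 49 members and in replicate 8 for 12, and the lowest in replicate 2 for 28, in replicate 3 for 18 and in replicate 6 for 17. In replicate 5, 66 of the 67 stood above their own mean on the log2 scale, the exception being Rpl7l1, and in replicate 2 only Rpl38 did, a member of few reads. The libraries at the 2 ends of the group thus differed in nearly every member at once. The like counts were not made over all genes, so these counts do not set the members apart from other genes.

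**Figure D1:**
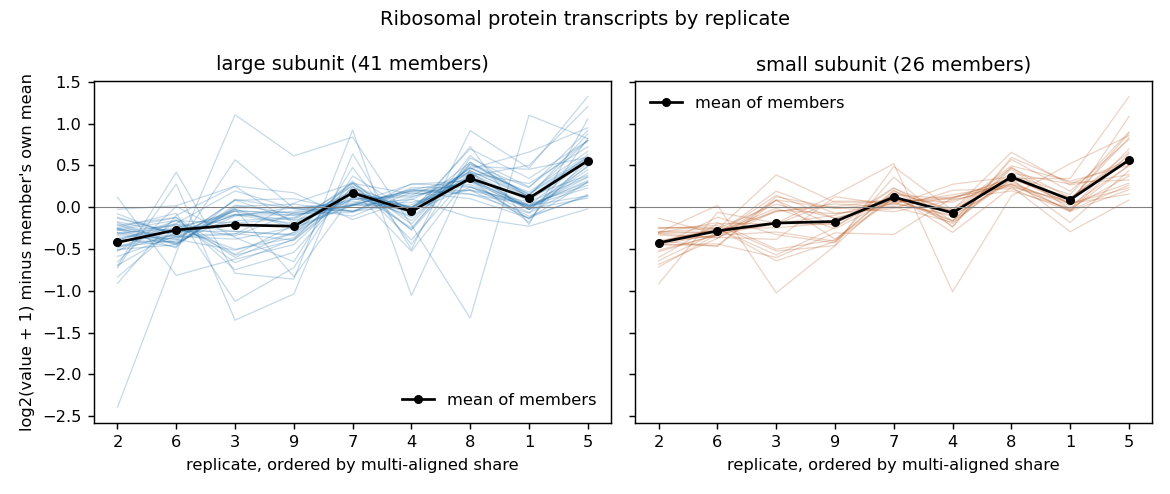
Log2(value + 1) minus the member's own mean (y axis) in each of the 9 replicates (x axis, ordered by the share of multi-aligned reads), for 41 large subunit members (left) and 26 small subunit members (right). Thin lines are members and black points their mean, which runs from about -0.42 in replicate 2 to 0.56 in replicate 5 in both panels.

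Large and small subunit members moved as 1 block. In replicate 5 the large subunit mean was 0.56 and the small 0.56, in replicate 2 both were at -0.42 and -0.43, and in replicate 8 they were 0.35 and 0.36. The large minus small difference was lowest in replicate 9 at -0.056, had a median of 0.0050 and was highest in replicate 7 at 0.052, on the log2 scale. Its SD over the 9 replicates was 0.0306, where the SD of the member mean itself was 0.318. The Pearson r of the large with the small mean was 0.995, a description over 9 libraries that share their scaling. The difference had r of 0.06 with the share of multi-aligned reads, -0.03 with the share outside genes and 0.35 with the share in more than 1 gene.

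**Figure D2:**
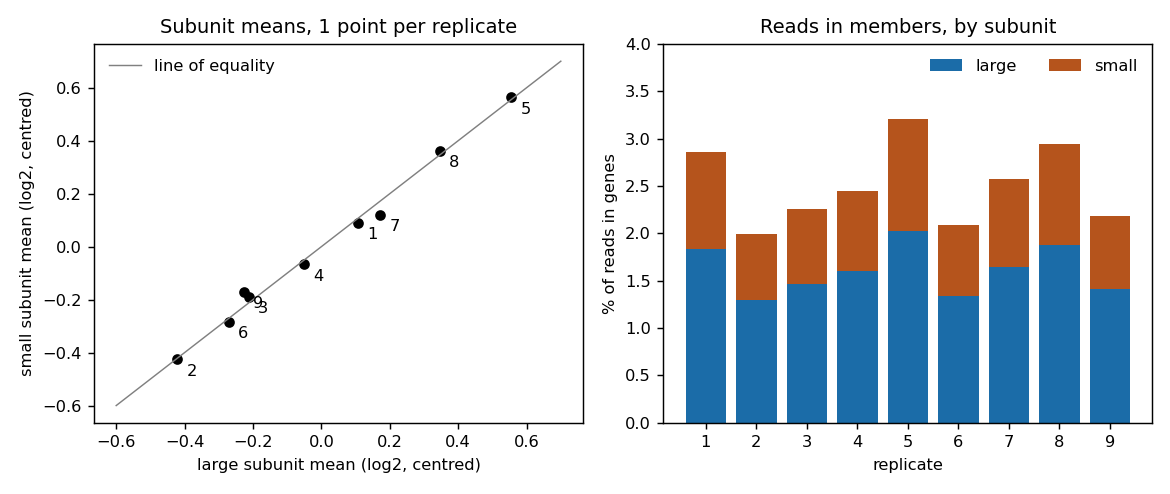
Left, mean of small subunit members against mean of large subunit members (both log2, centred), 1 point per replicate, numbered, with the line of equality, from which no replicate departs by more than 0.0562. Right, percent of reads in genes that fell in large and small subunit members, stacked, from 1.99% in replicate 2 to 3.20% in replicate 5.

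Pairs of members gave the same picture across the 9 replicates. The mean pairwise Pearson r was 0.64 over 820 pairs within the large subunit, 0.73 over 325 pairs within the small subunit and 0.69 over 1066 pairs between the subunits. Over all pairs of the 13647 genes it was 0.0005. Over 2278 pairs of ribosomal proteins of the mitochondrion it was 0.62, near that within the large subunit, so such r were not particular to the members. An r above 0.5 was seen in 78.0% of the pairs within the large subunit, 88% within the small and 83.8% between them. The percent of all gene pairs above 0.5 was not counted. Each member was also set against the mean of the others, where the median r was 0.87 and 24 members exceeded 0.9. The highest r was 0.99 and the lowest -0.48. These correlations are given without a test.

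Among small subunit members with a mean of at least 100, Rps4y2, Rps2 and Rps27 had the widest spans. Rps2 lies near the entry of the messenger RNA channel and had 7489 in replicate 3, a median of 10450 and 24812 in replicate 5. Replicate 5 stood apart from the other 8, the next being replicate 8 at 16252. Rps4y2, a paralogue of Rps4x that RefSeq places on chromosome 4, had 129.4 in replicate 3, a median of 158.8 and 493.4 in replicate 5. Here too replicate 5 was alone, with replicate 8 next at 250.2. Rps4x and Rps25 spanned the least among the small subunit members with a mean of at least 100, from 6600 to 9629 and from 4295 to 6455.

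Among the other abundant small subunit genes, Rps16 ran from 9187 in replicate 2 over a median of 14181 to 25436 in replicate 5. Rpsa, which is also known as the laminin receptor precursor, ran from 13018 in replicate 3 over a median of 18659 to 29455 in replicate 5. Both were highest in the same library, while the lowest library differed. Rps27a, made as a fusion with ubiquitin, spanned 1.52-fold, from 5500 in replicate 6 over a median of 6712 to 8350 in replicate 8.

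In the large subunit the widest spans among members with a mean of at least 100 belonged to Rplp2, Rpl36 and Rpl28. Rplp2, an acidic protein of the flexible stalk that recruits translation factors, had 1083 in replicate 3, a median of 3348 and 6920 in replicate 5, a 6.39-fold span. Rplp0, the base of that stalk, spanned 2.45-fold, from 14776 in replicate 3 over a median of 22325 to 36164 in replicate 5. Both stalk genes had the same lowest and highest library.

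Rpl28 had 6497 in replicate 2, a median of 8876 and 19876 in replicate 5. Rpl36 had 1374 in replicate 3, a median of 2898 and 5205 in replicate 5. Rpl4, which lines the peptide exit tunnel, stayed between 15164 in replicate 6 and 23104 in replicate 5 around a median of 17888, a 1.52-fold span. Rpl7 likewise stayed between 15663 and 23926 in the same libraries. Rpl41, the smallest of the proteins, ran from 13714 in replicate 2 over a median of 19654 to 26486 in replicate 8.

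The members' spans were set beside those of all genes. The fold between the highest and lowest replicate, on value + 1, had a median of 2.08 over the members and 2.00 over all 13647 genes. With a mean of at least 1000 it was 2.07 over 59 members and 1.77 over all 4373 genes. The median was 2.13 for the large and 2.08 for the small subunit. Tested singly with limma against the robust trend of variance on level, no member and no gene of the table passed at an adjusted p under 0.05 (0.00% called), and the lowest adjusted p of a member was 0.964. At an unadjusted p under 0.05, 2 members passed, 2.99%, against 4.02% of all genes. They were Rplp2, with 13.7 times the variance of the trend, and Rpl36, with 6.33 times.

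The question set for the library measures was how far each member moved with them. A slope was fitted with limma for each gene on each measure, per SD of the measure, and p-values were adjusted over all 13647 genes. On the share of multi-aligned reads, 46 of 67 members rose and none fell, 68.7%. Of all genes 35.0% were called in either direction and 16.3% rose, 2225 genes against 2549 that fell. When every library was scaled to the same total the split of all genes was 1489 against 2814, and 40 members rose with none falling, against 31.5% of all genes called. By subunit 28 of 41 large members, 68.3%, and 18 of 26 small members, 69.2%, rose.

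The median slope was 0.29 over the members, a 1.22-fold change per SD, and 0.02 over all genes, a 1.01-fold change. It was 0.28 in the large and 0.30 in the small subunit. Of the 67 slopes 66 were above 0. The member mean itself had a Pearson r of 0.91 and a Spearman rho of 0.90 with this share, and an r of 0.94 without replicates 1 and 5, the libraries farthest from the median share. It is a description with no test, and the measure is not independent of the members, since reads of their own transcripts and copies that aligned more than once are counted in it.

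**Figure D3:**
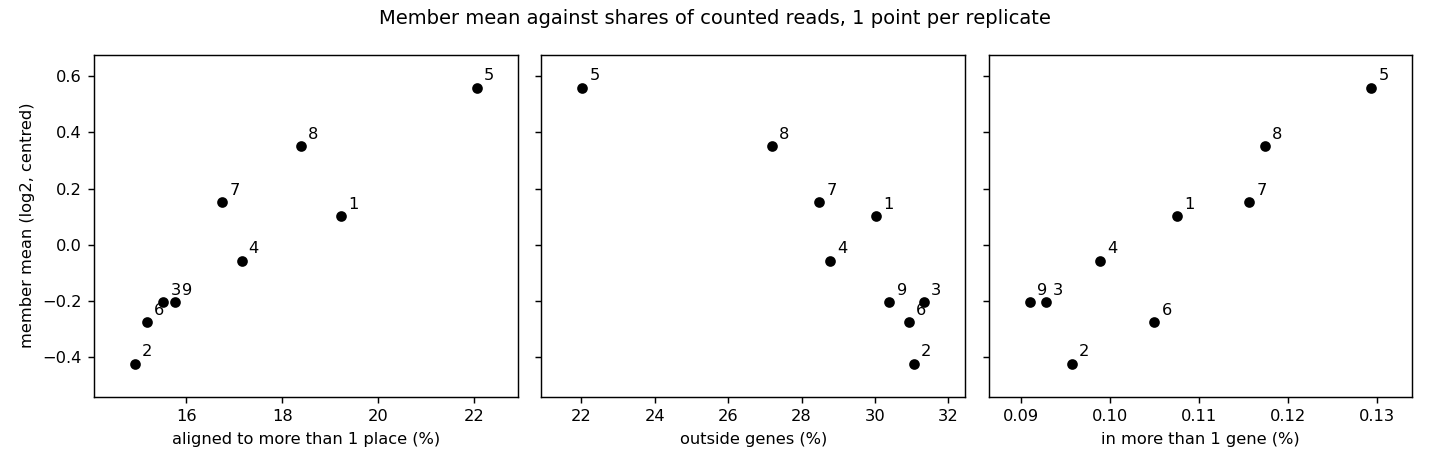
Member mean (y axis, log2, centred) against the percent of counted reads aligned to more than 1 place (left), in no counted feature, labelled outside genes (middle), and in more than 1 gene (right). There is 1 numbered point per replicate. Replicate 5, at 22.1%, 22.0% and 0.129%, lies at an end of each x axis and has the highest member mean, 0.56.

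Which libraries carried these counts was examined by leaving each out. Without replicate 5, 10 members rose with the multi-aligned share, where 12.8% of all genes were called. Among them were Rpl13, Rpl27a, Rpl28, Rpl34, Rps10, Rps12, Rps15 and Rps4y2, named after their values were seen. The median slope was then 0.20 in the large and 0.21 in the small subunit. Leaving out any other single library gave 33 to 50 members, where 28.9% to 36.5% of all genes were called. When the share outside genes was added to the fit as a covariate, 0 members passed with limma, 0.198% of all genes were called, and 2 members had an unadjusted p under 0.05, among them Rps4y2 at 0.011 with limma, where 16.1% of all genes did. The parts of the 2 shares in the calls cannot be told apart.

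The slopes set apart some members by name. Rps4y2 had the firmest, 0.59 ± 0.075 (slope ± SE, limma adjusted p = 0.0020), a 1.51-fold change per SD. Rpl13 had 0.42 ± 0.069 and Rpl28 0.46 ± 0.078, both with a limma adjusted p of 0.0022 to 0.0023. Rps15 had 0.42 ± 0.078 (limma adjusted p = 0.0028). Rps2 had 0.46 ± 0.086 (limma adjusted p = 0.0029), Rplp0 0.34 ± 0.090 (0.012) and Rpsa 0.33 ± 0.081 (0.0093). Rplp2 had the steepest slope of all members, 0.70 ± 0.19 (limma adjusted p = 0.016). Rps27a rose by 0.19 ± 0.066 (limma adjusted p = 0.038) and Rpl41 by 0.26 ± 0.077 (0.021).

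The 21 members that did not pass included some of the most abundant. Rpl4 had a slope of 0.14 ± 0.068 (limma adjusted p = 0.11) and Rpl7 0.14 ± 0.071 (0.14). Rpl21 had 0.10 ± 0.080 (limma adjusted p = 0.33) with values from 8939 in replicate 6 over a median of 12324 to 14137 in replicate 4. Rpl5, which with Rpl11 and the 5S ribosomal RNA forms a particle that can hold back Mdm2, had 0.07 ± 0.10 (limma adjusted p = 0.62), and Rps3a 0.04 ± 0.092 (0.74). A slope that misses the threshold does not show that the gene did not move. A run of at least 8 pyrimidines in the window was found in members of either kind. It was held by 21 of the 37 matched members that passed and by 10 of the 15 that did not, with Rpl5 among the latter.

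**Figure D4:**
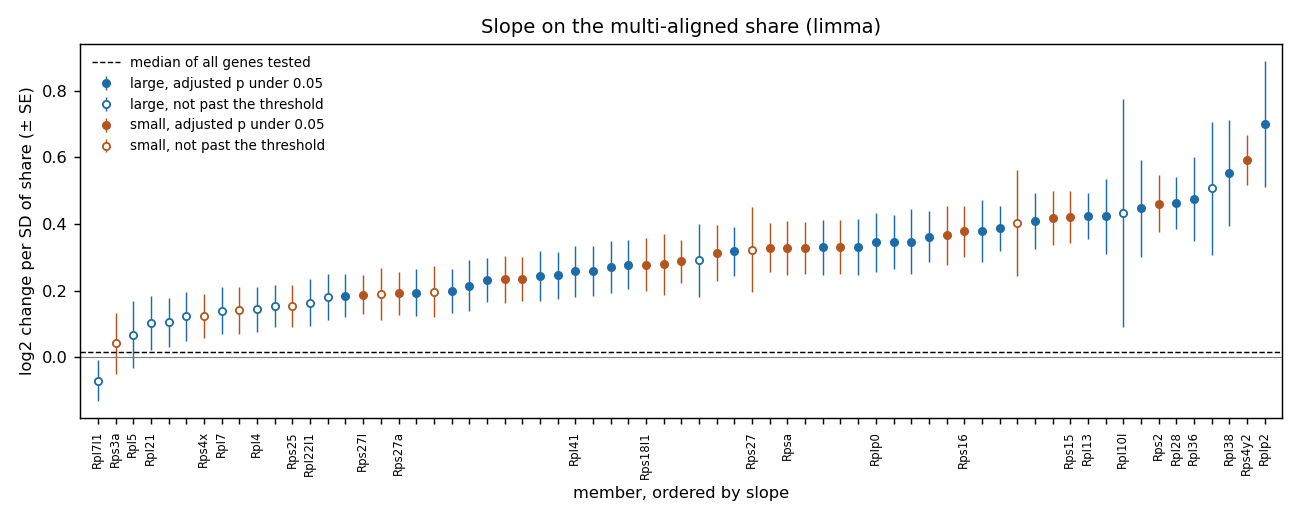
Limma slope on the share of multi-aligned reads (y axis, log2 change per SD, bars are SE) for the 67 members in order of slope (x axis, with names for members chosen by the rule for named genes), blue for the large and orange for the small subunit, filled where the adjusted p was under 0.05. Slopes run from -0.07 for Rpl7l1 to 0.70 for Rplp2, and the dashed line is the median of all genes at 0.02.

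The other measures gave like counts. With the share of reads outside genes, 44 members fell, 65.7%, 26 large and 18 small, and none rose, where 29.1% of all genes were called and 13.4% fell. Their median slope was -0.28. With the same total per library 29 members fell and none rose, where 29.2% of all genes were called, while the split of all genes went from 2145 rising and 1830 falling to 3164 rising and 824 falling. The member mean had a Pearson r of -0.89 and a Spearman rho of -0.88 with this share, and an r of -0.78 without its 2 farthest libraries. Without replicate 5, 27 members fell, where 14.4% of all genes were called.

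With the share of reads in more than 1 gene, 45 members rose, 67.2%, 27 large and 18 small, and none fell, where 41.8% of all genes were called and 20.9% rose. With the same total per library 35 rose and Rpl7l1 fell, where 39.3% of all genes were called, with a slope of -0.15 ± 0.052 (limma adjusted p = 0.033), and the split of all genes went from 2853 rising and 2850 falling to 1844 and 3514. The member mean had a Pearson r of 0.90 and a Spearman rho of 0.82 with this share, and an r of 0.83 without its 2 farthest libraries. Without replicate 5, 23 members rose, where 23.1% of all genes were called. In all, 40 members passed on all 3 shares and 16 on none. The like counts over all genes were not made, and the 3 shares moved together.

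Depth gave no call. On the log2 of the reads in genes, 0 of 67 members and 0.00% of all genes passed with limma, and edgeR and DESeq2 called 0 members too, with 0.00% and 0.0220% of all genes. At an unadjusted p under 0.05, 15 members passed with limma, 22.4%, against 13.4% of all genes. The member mean had a Pearson r of 0.42 and a Spearman rho of 0.38 with log2 depth. With depth as a covariate 41 members rose with the multi-aligned share, where 26.4% of all genes were called.

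Replicate 3, the shallowest library, was the one in which the members spread most around their mean, with an SD of 0.389 on the log2 scale against 0.180 in replicate 6. In it 4 members lay at least 1.5-fold under the member mean, Rplp2 by -1.15, Rpl36 by -0.92, Rps27 by -0.82 and Rpl39 by -0.59 on the log2 scale. Another 3 lay at least 1.5-fold over it, Rpl10l by 1.31, Rpl5 by 0.77 and Rps3a by 0.59. Rpl5 had 15272 in replicate 6, a median of 21232 and its highest value, 31712, in replicate 3. Rps3a had 9923 in replicate 2, a median of 13674 and 17153 in replicate 3. Rps27 had 3175 in replicate 3, a median of 6561 and 10186 in replicate 8. In replicate 3 the stalk gene Rplp2 and the 5S partner Rpl5 thus stood at opposite ends of their own ranges, and the part of that library's depth in this was not tested.

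**Figure D5:**
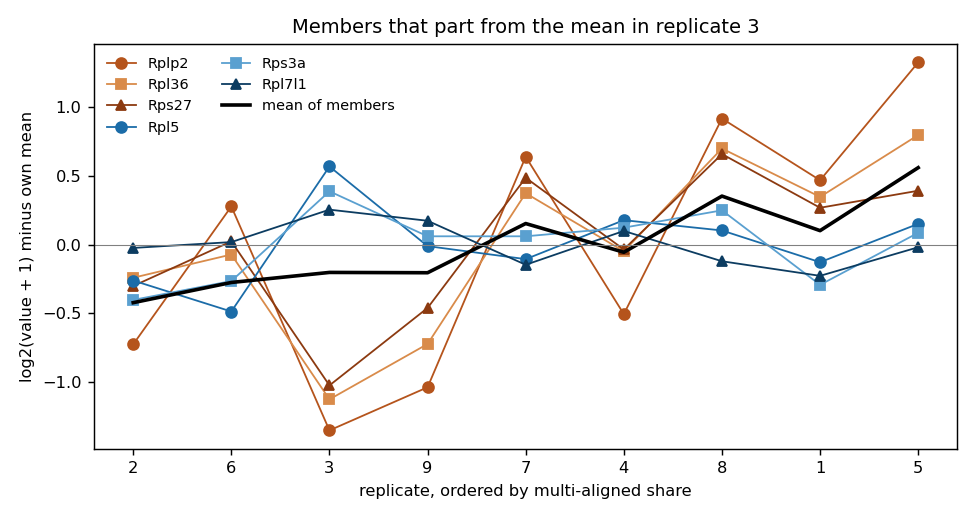
Log2(value + 1) minus the gene's own mean (y axis) in the 9 replicates (x axis, ordered by the share of multi-aligned reads) for Rplp2, Rpl36 and Rps27 (orange), Rpl5, Rps3a and Rpl7l1 (blue) and the mean of all 67 members (black). In replicate 3 Rplp2 lies at -1.35 and Rpl5 at 0.57, on either side of the mean at -0.20.

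The 4 members whose r with the mean of the others was under 0.5 were Rpl5 at 0.27, Rps3a at 0.38, Rpl10l at 0.29 and Rpl7l1 at -0.48. Rpl7l1, a paralogue of Rpl7, had 645.8 in replicate 1, a median of 746.0 and 901.7 in replicate 3, the narrowest span of all members at 1.40-fold. Its slope of -0.07 ± 0.062 on the multi-aligned share did not pass (limma adjusted p = 0.40). Rpl10l, a paralogue of Rpl10 best known from testis, had 1.55 in replicate 2, a median of 19.5 and 27.9 in replicate 3, few enough reads that counting error is part of its 11.3-fold span. Its slope was 0.43 ± 0.34 (limma adjusted p = 0.34).

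The other paralogue names kept nearer to the block. Rpl22l1, a paralogue of Rpl22, had 888.7 in replicate 6, a median of 1178 and 1389 in replicate 7, with a slope of 0.16 ± 0.071 (limma adjusted p = 0.087). Rps27l, a p53 target and paralogue of Rps27, had 1138 in replicate 2, a median of 1471 and 1811 in replicate 5, with a slope of 0.19 ± 0.059 (limma adjusted p = 0.026). The row Rps18l1 ran from 6828 in replicate 2 over a median of 9525 to 15373 in replicate 5, while Rps18 ran from 123.7 to 316.2. Reads of such near-identical copies could have been split between the rows, so these values are uncertain for either name.

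Some rows outside the name rule belong to the same proteins. A further row for Rps4x averaged 1672 ± 852.5 and Rpl36al 2021 ± 676.1 (SD, n = 9), both highest in replicate 5. A further row for Rps27a had 154.9 in replicate 4 and 488.4 in replicate 1, and Fau, the precursor of a small subunit protein, averaged 0.553. The further row for Rps27a did not share the highest library of the main row.

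Genes of the wider pathway were taken from lists, with the same fit on the multi-aligned share and the same 35.0% of all genes called. Among 29 ribosome biogenesis factors 3 rose and none fell. Nop10, part of the particles that make pseudouridine, had a slope of 0.28 ± 0.059 (limma adjusted p = 0.0049) and Eif6, which keeps free large subunits apart from small ones, 0.32 ± 0.073 (0.0064). Ncl, nucleolin, had 8277 in replicate 1, a median of 10126 and 20577 in replicate 3, with a slope of -0.12 ± 0.12 (limma adjusted p = 0.47). The median slope of that list was 0.03.

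Of 13 genes for RNA polymerase I and its factors, which transcribe ribosomal RNA, 4 rose and 3 fell. Znrd1, a polymerase subunit, rose by 0.42 ± 0.096 (limma adjusted p = 0.0063), and Rrn3, the initiation factor, fell by 0.39 (SE 0.083, limma adjusted p = 0.0046). Ubtf, which binds the ribosomal DNA promoter, had 0.01 ± 0.076. Among 17 other genes of the TOP class 4 rose and none fell, with Eif3k at 0.29 ± 0.062 (limma adjusted p = 0.0045) and Eif3f at 0.30 ± 0.064 (0.0047). Eef1a1, the elongation factor, ran from 81636 to 102287 with a slope of 0.00 ± 0.077.

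Of 16 genes of mTOR signalling and TOP control, 5 rose and 3 fell. Rictor, the defining subunit of mTORC2, had 21.2 in replicate 5, a median of 97.7 and 319.9 in replicate 6, and fell by 1.14 per SD (SE 0.18, limma adjusted p = 0.0021). Tsc1, a brake on mTORC1, fell by 0.45 (SE 0.080, limma adjusted p = 0.0025), and Rheb, its activator, had -0.07 ± 0.057. Of 11 genes that rescue or clear stalled ribosomes 1 rose and 2 fell. Those were the recycling factor Abce1, by 0.29 (SE 0.064), and the ubiquitin ligase Ltn1, by 0.29 (SE 0.064), with limma adjusted p of 0.0051 and 0.0056. Serbp1, which binds idle ribosomes, had -0.02 ± 0.10.

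Ribosomal proteins of the mitochondrion, encoded in the nucleus and built into a separate ribosome, had the counts nearest to those of the members. Of 68 tested 37 rose with the multi-aligned share, 54.4%, and none fell, with a median slope of 0.21. Mrpl54 had 0.46 ± 0.075 and Mrpl23 0.34 ± 0.061, with limma adjusted p of 0.0022 and 0.0025, and Mrpl15 0.07 ± 0.098. Their mean had an r of 0.98 with the member mean over the 9 replicates. The difference between these 2 sets was not tested.

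Markers of the cells in the cortex were summed in the same libraries. The summed level of 7 proximal tubule markers ran from 152854 to 294133, and their mean had an r of 0.24 with the member mean. For 5 thick ascending limb and distal markers the sum ran from 83815 to 152179 with an r of -0.14, for 5 podocyte markers from 9663 to 13569 with an r of -0.15, and for 4 endothelial markers from 6255 to 9506 with an r of -0.66. Of 9 leukocyte markers with a row 5 reached the minimum. The sum over all 9 ran from 5568 to 7946, and the r over the 5 was 0.19. On the multi-aligned share 1 of these 5 passed, Ptprc, which fell by 0.47 per SD (SE 0.089, limma adjusted p = 0.0030), while the slopes of the other 4 were above 0 and the median slope of the 5 was 0.11.

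Of the tissues that could lie beside the cortex, 5 skeletal muscle markers summed to between 27.2 in replicate 2 and 84.2 in replicate 5, with an r of 0.79 with the member mean over the 3 that reached the minimum. The r was 0.08 for 2 erythroid, 0.17 for 2 adipose, 0.17 for 2 adrenal and 0.29 for 2 liver markers. The sums over all listed markers with a row ran from 315.5 to 555.4, 548.0 to 1251, 59.7 to 146.3 and 846.3 to 1279. The liver sum was almost wholly Fga, with a mean of 1077. Alb lay little above the minimum mean, and Apoa1 at 6.22 and Ttr at 0.591 lay under it. The adipose sum rested on Cidec at 508.9 and Adipoq at 333.7, while Plin1 at 9.98 and Lep at 1.40 lay under the minimum. These 2 sums therefore do not show liver or adipose tissue by their other markers. Of 6 erythroid markers listed 2 had a row, Alas2 and Slc25a37, and none of the listed globin genes did. Their slopes on the multi-aligned share were 0.37 ± 0.19 and -0.27 ± 0.082 (slope ± SE). The erythroid r thus joins 2 genes of opposite slope and does not cover the globins. No list had a marker at 0 in every library. The part of cell makeup in the members' common movement was not tested, and in bulk tissue a smaller share of a cell type and less RNA per cell cannot be told apart.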

How the data were processed

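Kidney cortex RNA had been sequenced from 9 replicates of 1 group, with stranded libraries per the labels. The deposited table holds a signal, which the authors made by dividing read counts per gene by a size factor of each library. HTSeq 0.6.1p1 and DESeq2 are named with the genome build Rnor_5.0 in the submitters' processing notes, and the aligner is not given in the sources used here. Whole reads were recovered, since the values of each library were multiples of what 1 read was worth (0.544 to 1.99), with 100% of the values above 0 within 0.1 read of a whole number. The 3 rows that count reads outside single genes stayed out of library sizes and tests and served as shares of all counted reads.

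Genes with a mean of at least 10 were analysed as log2(value + 1), so slopes of low genes are understated. Slopes on each measure, per SD, and variances were fitted over all 13647 genes with limma 3.58.1 (robust trend) in R 4.3.3, and repeated on the recovered reads with DESeq2 1.42.0 and with the quasi-likelihood test of edgeR 4.0.16. All tests were two-sided except that of variance, which was upper-tailed, with Benjamini-Hochberg adjustment over all genes and a threshold of 0.05. The fits were tested on simulated data. The members, lists and tests were chosen with earlier results of these data known, and the libraries share their scaling, so no test was made of the members as a set.

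Named genes were the 5 most abundant members of each subunit, the 3 with the widest and the 3 with the narrowest span per subunit (mean of at least 100), paralogue names, the stalk genes, Rpsa and Rps27a, the 5 highest and 5 lowest slope statistics, the members nearest the minimum, and of each pathway list the 2 largest slope statistics and the most abundant gene. The values of some genes under this rule are not reported here. Other names are given as complete sets, as counterparts of these, or with the reason. Alternatives were the pseudocount (0.5 and 5), the minimum mean (none and 100), TMM scaling, the same total per library, the other tools and each replicate left out. The covariates, and leaving out the 2 libraries farthest from the median multi-aligned share, were added after seeing the data. Promoter windows and copies came from RefSeq GRCr8. The labels give no batch.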

Additional observations from a re-analysis of the deposited data

Results flagged for a closer look

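The values of the 67 members, the 3 shares of reads outside single genes and other summaries of the libraries, 76 in all, were searched for a sample far from the other 8, by Dixon's criterion for 9 samples. Chance flags about 1 in 20 such groups, and 5 of 76 were flagged. In all 5 the far sample was replicate 5.

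Rps2 stood at 24812 in replicate 5 and at 16252 in the next library. Rps4y2 stood at 493.4 there, with 250.2 next, and Rps18 at 316.2, with 201.8 next. Rpl38, with few reads in any library, stood at 30.7, with 18.5 next. The share of reads outside genes was lowest in that library at 22.0%, the next being 27.2%.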

How the results depend on the processing

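Leaving out each replicate in turn moved the number of members called from 10 to 50 on the multi-aligned share, from 27 to 50 on the share outside genes and from 23 to 47 on the share in more than 1 gene, the lowest each time without replicate 5. Of all genes 12.8% to 36.5%, 14.4% to 39.5% and 23.1% to 45.5% were called in these fits, also lowest without replicate 5. The median slopes on the multi-aligned share then ran from 0.20 to 0.31 in the large and from 0.21 to 0.32 in the small subunit. With the share outside genes as a covariate 0 members and 0.198% of all genes were called, and the medians were 0.13 and 0.15. With the same total per library 29 members were called on the share outside genes, where 29.2% of all genes were. Without replicates 1 and 5, 23 were called on the share in more than 1 gene, where 23.7% of all genes were. The cause was not tested. The slope of Rps3a ran from -0.0147 without replicate 2 to 0.0917 without replicate 3. With the share outside genes as a covariate it was -0.106 and that of Rpl7 -0.0204. The other summaries, among them the large minus small difference, the span of the member mean and the pairwise correlations, stayed within 1.5 times or the spread between replicates under the alternatives run. Of 26 named members, 26 kept their side of the threshold with edgeR and with TMM scaling, and 15 without replicate 5, where 11 no longer passed. No paired analysis was possible because the labels give 1 group. Rpl10l, Rpl38 and the rows under the minimum mean rest on few reads, so counting error is large there, and the parts of the 3 shares cannot be told apart in 9 libraries.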
